A study of Mus musculus with 4 samples.

Results

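The genes described here encode the proteins of the cytosolic ribosome and their close paralogs. They were taken from the deposited gene count table as protein-coding genes whose symbols follow the Rpl or Rps naming pattern, with Rplp0, Rplp1, Rplp2 and Rpsa added. The rule gave 83 of 55487 genes: 46 main genes of the large subunit, 31 main genes of the small subunit and 6 paralogs. A further 6 symbols fit the pattern but are annotated as pseudogenes, among them Rps4l, and were left out. Tumour RNA had been sequenced from 2 mice with a liver-conditional deletion of Tfrc, the transferrin receptor gene, and from 2 wild type mice. Both groups are described as Alb-cre, H11-myc animals, in which an albumin promoter drives Cre in hepatocytes and a c-Myc transgene gives spontaneous hepatocellular carcinoma (HCC). The labels give neither the age of the mice nor the deleted exons. The tissue was bulk tumour, so cells without albumin-driven Cre kept Tfrc and contributed RNA, and fewer cells of a type cannot be told apart from less RNA per cell.

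A ribosome is built from a small subunit, which reads the mRNA, and a large subunit, which forms peptide bonds and carries a flexible stalk that recruits translation factors. Mammalian ribosomal protein mRNAs mostly begin with a C and a run of pyrimidines, the terminal oligopyrimidine (TOP) motif, through which mTORC1 and LARP1 control their translation together. Myc is known to raise ribosome production, and the liver is a tissue of high protein synthesis. Mammalian genomes also hold very many retrotransposed copies of ribosomal protein mRNAs, most of them annotated as pseudogenes, and a few expressed paralogs that can replace a main protein in the ribosome.

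The library totals were 15918349 and 16421439 counts in knockout replicates 1 and 2, and 16414883 and 17052943 in wild type replicates 1 and 2. Tfrc itself had 5407 and 3244 counts in the libraries labelled knockout, against 8441 and 3603 in wild type. It did not check the labels, since the groups overlapped (log2 fold change -0.37, SE 0.45, edgeR quasi-likelihood test, Benjamini-Hochberg adjusted p = 0.833), so directions below refer to the libraries by their labels. Wild type replicate 2 stood apart on the first principal component, which held 46% of the variance, at 64.1, against -31.2 and -19.2 in the libraries labelled knockout and -13.7 in wild type replicate 1. The share of mitochondrially encoded counts was 9.8% and 16.6% in the libraries labelled knockout, against 8.69% and 4.13% in wild type. Alb, a defining hepatocyte marker, was present throughout, at 21800 and 16800 CPM (TMM-scaled counts relative to library size) in the libraries labelled knockout, against 5370 and 29400 CPM in wild type.

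Ribosomal protein genes took a smaller share of the counts in the libraries labelled knockout, and the size of the gap depended on wild type replicate 2. The 83 members held 2.89% and 2.52% of all counts in knockout replicates 1 and 2, against 3.21% and 4.31% in wild type replicates 1 and 2. The Wilson 95% intervals were narrow, for example 4.30% to 4.32% in wild type replicate 2, and cover counting error only. The groups did not overlap, the log2 difference was -0.46, and the exact two-sided permutation test gave p = 0.333, the smallest that 2 against 2 libraries allow. Leaving out wild type replicate 2 gave -0.25, and leaving out wild type replicate 1 gave -0.67. The totals include mitochondrially encoded counts. Without these the shares were 3.209% and 3.025% in the libraries labelled knockout, against 3.519% and 4.495% in wild type. The summed TMM-scaled CPM of the members were 28369 and 26078 in the libraries labelled knockout, against 28673 and 47656 in wild type. On that scale knockout replicate 1 and wild type replicate 1 were nearly equal.

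Most sequence-matched counts lay outside the members. Aligning transcripts found 1180 genes with a transcript at least 90% identical to a member over at least 50% of that transcript. Of these, 1163 are annotated as pseudogenes and 17 as protein coding, and 783 had counts. The whole count of such a gene was used, even where only 1 of its transcripts matched. An example is Uimc1, a protein-coding gene assigned to Rpl29. It had 4023 and 3134 counts in the libraries labelled knockout, against 4358 and 6851 in wild type. Below, a family sum is the count of a member plus that of the similar genes assigned to it, a quantity added after seeing the data. Family sums held 6.88% and 6.14% of the counts in the libraries labelled knockout, against 7.72% and 10.07% in wild type. The part of the family counts that lay at copies was nearly constant, 57.9% and 58.9% in the libraries labelled knockout, against 58.4% and 57.2% in wild type. The labels do not say what became of reads with several matching places, so the split between a gene and its copies is uncertain.

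**Figure D1:**
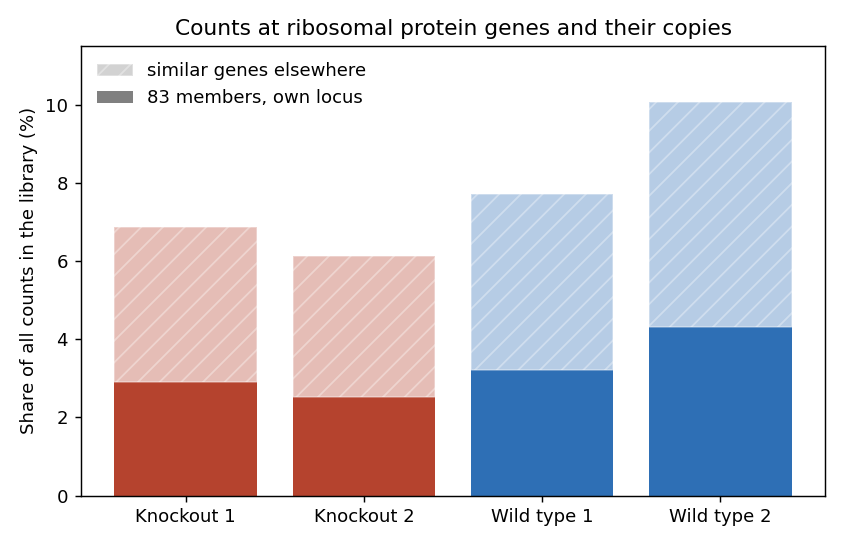
Share of each library's counts (%) at the 83 members (solid) and at similar genes elsewhere in the genome (hatched), with knockout libraries in red and wild type libraries in blue. Wild type replicate 2 has the tallest bar, 10.07% in all, and copies hold more counts than the members in each library.

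No ribosomal protein gene passed the adjusted threshold. Of the 83 members, 80 passed the filter on low counts and entered the test, 0 had an adjusted p under 0.05 (0% of all 16310 tested genes were called in either direction), and the smallest adjusted p was 0.591 by edgeR's quasi-likelihood test with Benjamini-Hochberg adjustment. At an unadjusted p under 0.05, Rps2 was lower and Rps13 higher, that is 1 of 80 in each direction, beside 4.35% of all tested genes lower and 3.95% higher. DESeq2 and limma-voom also called 0 members, while DESeq2 called 0.386% of all tested genes higher and 0.521% lower. The log2 fold changes were negative for 67 members and positive for 13 (49.6% of all tested genes were negative and 50.4% positive), with a median of -0.31, against 0.01 over all genes, and a range from -1.18 to 1.17. Both knockout libraries lay below both wild type libraries for 26 members (20.1% of all tested genes) and above them for 5 (21.9%).

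The direction followed wild type replicate 2. That library was the highest of the 4 for 67 of the 80 tested members, against 31.4% of all tested genes. Without it the median log2 fold change of the members was 0.02, beside 0.03 for all genes, and 39 were negative (47.6% of all genes). Without wild type replicate 1 the median was -0.62, beside 0.04 for all genes, and 23 members had an unadjusted p under 0.05 on the lower side (11.4% of all genes), with a smallest adjusted p of 0.0636 by the same edgeR test. Small subunit genes had a median of -0.42 and large subunit genes of -0.28 with all 4 libraries; the difference between the subunits was not tested.

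With family sums the module was more uniform. Of the 80 tested members, 77 were negative (49.5% of all genes in that fit) and 3 positive, the median was -0.46 and the range narrowed to -1.03 to 0.10. No family passed the adjusted threshold, the smallest adjusted p was 0.593, and Rps10 alone had an unadjusted p under 0.05 on the lower side (4.45% of all genes). Both knockout libraries lay below both wild type libraries for 34 families (20.1%) and above for 0 (22%), while wild type replicate 2 was the highest library for 78 (31.4%). The median main gene deviated from its own mean over the libraries by -0.18 and -0.19 on the log2 scale in the libraries labelled knockout, against -0.14 and 0.54 in wild type. Knockout libraries and wild type replicate 1 therefore lay within 0.05 of each other on this measure. Without wild type replicate 2 the family median was -0.05, with 51 of 80 negative (47.5%), and without wild type replicate 1 it was -0.72.

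**Figure D2:**
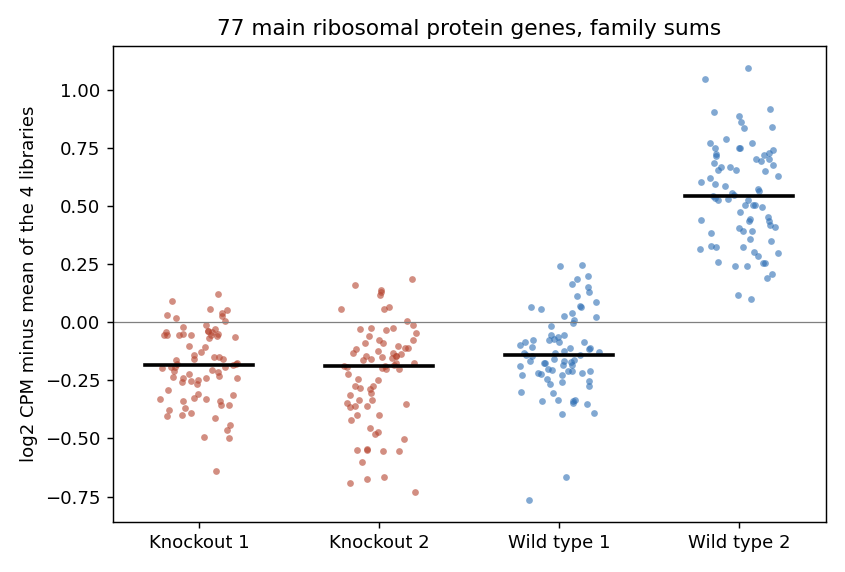
Deviation of each of the 77 main genes (points, family sums) from its own mean over the 4 libraries, in log2 CPM, by library. Black lines are medians: -0.18 and -0.19 in the knockout libraries, -0.14 and 0.54 in wild type replicates 1 and 2.

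The stalk genes and Rpsa gave this pattern in single genes. Rplp0, the stalk base that anchors the P1 and P2 proteins, had 1197 and 808 CPM in the libraries labelled knockout, against 696 and 1634 CPM in wild type (ENSMUSG00000067274, chr5:115559467-115563727, mm10). The groups overlapped, with wild type replicate 2 highest and wild type replicate 1 lowest, and the log2 fold change was -0.22 (SE 0.54, edgeR adjusted p = 0.923). Rplp1, one of the 2 acidic stalk proteins, had 1931 and 1693 CPM in the libraries labelled knockout, against 1662 and 3768 CPM in wild type. It was the most abundant member per length, at a mean of 4447 FPKM (fragments scaled to gene length and library size), and its log2 fold change was -0.58 (SE 0.56, edgeR adjusted p = 0.783). Rplp2, its partner, had 288 and 316 CPM in the libraries labelled knockout, against 315 and 604 CPM in wild type, with a log2 fold change of -0.60 (SE 0.42, edgeR adjusted p = 0.698). Knockout replicate 2 and wild type replicate 1 were nearly equal for Rplp2, and wild type replicate 2 stood alone. Rpsa, a small-subunit protein also known as the laminin receptor, had 1395 and 1219 CPM in the libraries labelled knockout, against 1017 and 2020 CPM in wild type, so both knockout libraries lay between the wild type ones. Without wild type replicate 2 the log2 fold changes turned to 0.53 for Rplp0, 0.12 for Rplp1 and 0.36 for Rpsa.

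Among the small subunit genes that stood lowest, Rps2, a protein near the mRNA entry channel, had 737 and 474 CPM in the libraries labelled knockout, against 1108 and 1626 CPM in wild type (ENSMUSG00000044533, chr17:24718116-24721929). The groups did not overlap, giving -1.18 on the log2 scale (SE 0.46, 95% interval from -2.26 up to -0.09, edgeR adjusted p = 0.591). Rps2 has 64 similar genes, and 43.2% of its family counts lay at its own locus; the family sum gave -0.89. Rps14, whose loss in human 5q- syndrome causes anaemia, had 562 and 407 CPM in the libraries labelled knockout, against 739 and 1099 CPM in wild type, a log2 fold change of -0.92 (SE 0.42, edgeR adjusted p = 0.623). Nearly all of its family counts, 89.6%, lay at its own locus, and the groups did not overlap. Ndst1 overlaps Rps14 on the opposite strand, and nothing in the labels states whether strand was used in counting. Rps15 and Rps3a1 were among the 4 members highest in deposited FPKM, a ranking that depends on the gene length used there. Their log2 fold changes were -0.51 and -0.45 (edgeR adjusted p = 0.754 and 0.759). In both genes the knockout libraries lay below the wild type libraries without passing the test.

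Of the large subunit genes, Rpl36 had 243 and 306 CPM in the libraries labelled knockout, against 397 and 557 CPM in wild type (log2 fold change -0.80, SE 0.37, edgeR adjusted p = 0.627). Rpl30, which binds its own transcript in yeast, had 208 and 194 CPM in the libraries labelled knockout, against 277 and 339 CPM in wild type (log2 fold change -0.62, SE 0.32, edgeR adjusted p = 0.634). In both genes the knockout libraries lay below the wild type libraries without overlap. Rpl9 had 28.3 and 24.99 CPM in the libraries labelled knockout, against 30.9 and 57.7 CPM in wild type, and only 4.47% of its family counts lay at its own locus. Its log2 fold change of -0.73 (SE 0.38, edgeR adjusted p = 0.634) came mostly from wild type replicate 2, which was well above the other libraries.

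The genes that stood highest in the libraries labelled knockout were all low at their own locus, and none kept that standing in the family sum beyond 0.10 on the log2 scale. Rps13 had 105 and 202 counts in the libraries labelled knockout, against 83 and 62 in wild type, or 6.47 and 12.7 CPM against 4.51 and 4.02 CPM. The groups did not overlap, and the difference was 1.17 on the log2 scale (SE 0.48, 95% interval from 0.02 up to 2.31, edgeR adjusted p = 0.597). Only 1.34% of the Rps13 family counts lay at that locus, and the family sum gave -0.43. Rpl10, which joins the large subunit late in its maturation, had 49.3 and 64.9 CPM in the libraries labelled knockout, against 43.1 and 44.0 CPM in wild type, with 3% of its family counts at its own locus. Its own-locus log2 fold change was 0.39 and its family value -0.42. Rps27a, which is made as a fusion with ubiquitin, gave 0.35 at its own locus and -0.16 as a family. Rps12 gave 0.44 and 0.01 and Rpl27 gave 0.35 and 0.10 in the same order, and the edgeR adjusted p of these 5 own-locus values ran from 0.597 to 0.747.

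**Figure D3:**
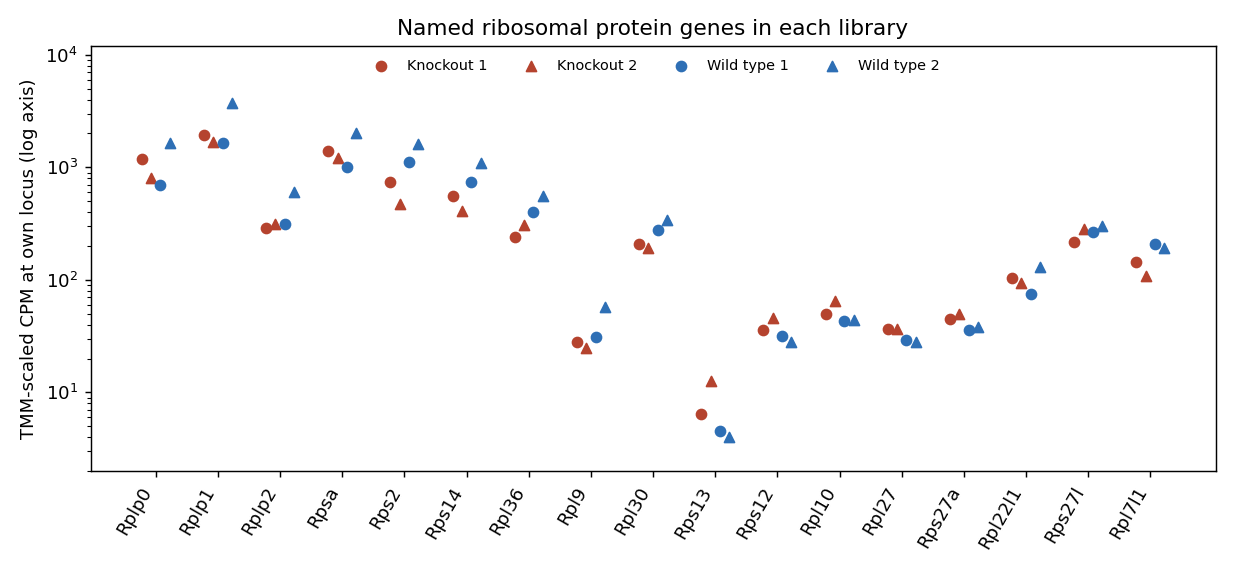
TMM-scaled CPM at the own locus (log axis) of 17 named genes in each library, knockout in red and wild type in blue, circles for replicate 1 and triangles for replicate 2. Wild type replicate 2 is the highest point for the stalk genes, Rpsa, Rps2 and Rps14, and the knockout points are highest for Rps13, at 6.47 and 12.7 CPM.

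This dependence on the locus held across the module. Of the 77 main genes, 47 had under 50% of their family counts at their own locus, 22 had under 10% and 12 had over 90%, with a median of 35.6%. Among the 22 genes under 10%, 12 had a positive own-locus log2 fold change and 2 a positive family value, with medians of 0.02 and -0.34. Among the 12 genes over 90%, 0 were positive by either count, with medians of -0.53 and -0.54. Levels also depended on the count and the length used. Own-locus FPKM of the main genes, as deposited, spanned 0.825 to 4447. For Rps13, the lowest, the length inferred from its counts and FPKM was 8365 bases. Its mRNA has 589 bases and the union of its exons 2691, so the inferred length exceeded both. Family counts per kilobase of mRNA spanned 221 to 5080 CPM per kilobase, around a median of 1200. How much of the contrast came from the count and how much from the length was not tested.

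**Figure D4:**
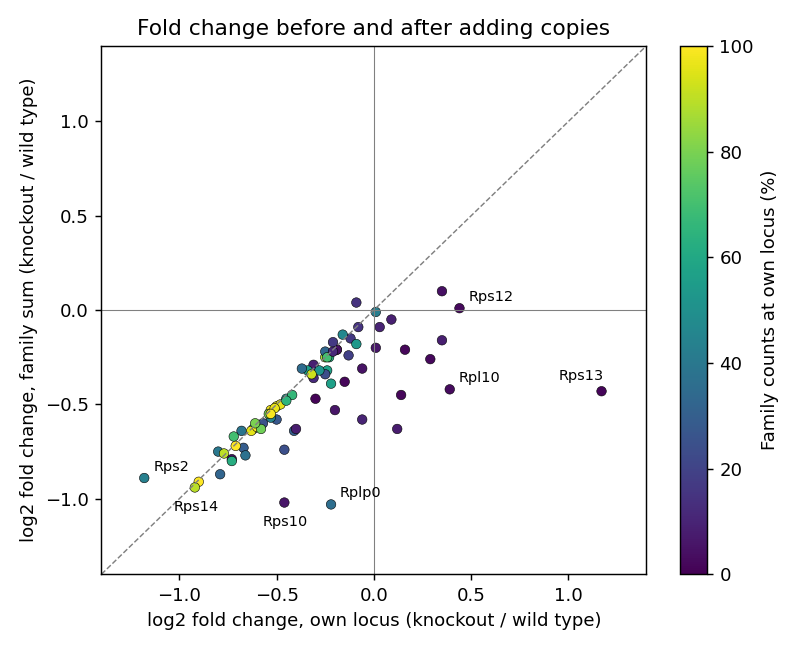
log2 fold change (knockout over wild type) of the 77 main genes from own-locus counts (horizontal) and from family sums (vertical), coloured by the percentage of family counts at the own locus; the dashed line marks equality. Genes with most counts at their own locus lie on the line, whereas Rps13 is at 1.17 by its own locus and -0.43 by its family.

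Rps27 showed the extreme. The main gene had 47 and 75 counts in the libraries labelled knockout, against 85 and 73 in wild type, which was 0.894% of its family counts. Rps27rt, a protein-coding retrotransposed copy on chromosome 9, had 6083 and 6595 counts in the libraries labelled knockout, against 8887 and 9343 in wild type. The 2 coding sequences were identical over all 252 aligned coding bases, so reads within them cannot be told apart. The stretch below is shown because it sets this copy beside the expressed paralog Rps27l, a gene known as a p53 target, which differed from Rps27 at 60 of 252 coding bases. The sequences are from the mm10 genome as annotated in GENCODE M21, and capitals mark bases that differ from Rps27.
Rps27, chr3:90213242-90213301, minus strand: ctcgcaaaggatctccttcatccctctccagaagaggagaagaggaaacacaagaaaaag
Rps27rt, chr9:114982642-114982701, minus strand: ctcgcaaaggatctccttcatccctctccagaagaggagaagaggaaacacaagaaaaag
Rps27l, chr9:66946831-66946890, plus strand: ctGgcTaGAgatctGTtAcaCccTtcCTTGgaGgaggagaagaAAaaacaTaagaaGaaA
In this stretch, which lies in 1 coding exon of each gene, Rps27rt had 0 differences and Rps27l had 19.

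Of the 6 paralogs among the members, 3 were expressed and 3 were at or near 0. Rpl10l and Rpl39l, paralogs known from the testis, had 0 counts in all 4 libraries, which with a floor of 3 counts allows at most 0.176 to 0.188 CPM. Rpl3l, known from heart and skeletal muscle, had 0 and 6 counts in the libraries labelled knockout, against 3 and 0 in wild type. These 3 did not enter the test. Rpl7l1, Rpl22l1 and Rps27l had log2 fold changes of -0.66, -0.05 and -0.19 (SE 0.32, 0.35 and 0.33), with edgeR adjusted p of 0.631, 0.975 and 0.884.

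Rpl22l1, which in mice is known to be restrained by Rpl22, had 104 and 93.8 CPM in the libraries labelled knockout, against 75.6 and 129 CPM in wild type. Rpl22 had 246 and 218 CPM in the libraries labelled knockout, against 234 and 296 CPM in wild type. The groups overlapped for both genes. By own-locus counts per mRNA length, Rpl22l1 reached 38.1% and 38.8% of Rpl22 in the libraries labelled knockout, against 29.2% and 39.4% in wild type. The log2 ratio difference was 0.18 (exact two-sided permutation p = 1). With family counts the percentages were 49.2% and 49.9% in the libraries labelled knockout, against 38.4% and 55.1% in wild type. The 2 genes share 70.2% of their coding bases and no identical run beyond 26 bases.

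Rps27l had 218 and 282 CPM in the libraries labelled knockout, against 267 and 303 CPM in wild type, again with overlap. Against the Rps27 family, Rps27l reached 40.0% and 46.4% per length in the libraries labelled knockout, against 37.8% and 34.3% in wild type. The knockout ratios lay above both wild type ones, by 0.26 on the log2 scale (exact two-sided permutation p = 0.333, the smallest possible). Against the Rps27 locus alone the ratio was over 3990% in each library, a value set by the few counts there, and the groups overlapped.

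Rpl7l1, which shares 59% of its coding bases with Rpl7, had 144 and 109 CPM in the libraries labelled knockout, against 210 and 191 CPM in wild type, without overlap. By own-locus counts per length, it reached 14% and 14.1% of Rpl7 in the libraries labelled knockout, against 18.0% and 10.1% in wild type. The knockout ratios therefore lay between the wild type ones (exact two-sided permutation p = 1). With family counts they also did, at 12.9% and 12.6% in the libraries labelled knockout, against 16.4% and 9.34% in wild type. Rpl36al, an autosomal relative of the X-linked Rpl36a that the naming pattern does not take, reached 22.2% and 20.8% of the Rpl36a family per length in the libraries labelled knockout, against 19.1% and 21.5% in wild type (exact two-sided permutation p = 0.667). Rps4l had 170 and 714 counts in the libraries labelled knockout, against 69 and 490 in wild type, so both groups spread widely.

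The largest differences between a gene and its copies lay in the Rplp0 family, which was singled out after its values were seen. Gm8730, a processed pseudogene on chromosome 8, had 16317 and 11515 counts in the libraries labelled knockout, against 26560 and 52541 in wild type. Its ratio to Rplp0 was 0.839 and 0.898 in the libraries labelled knockout, against 2.07 and 2.09 in wild type. The groups were far apart and each was narrow: the log2 difference was -1.26, and no 2 libraries of a group differed by more than 0.10 (exact two-sided permutation p = 0.333). Gm9625, another Rplp0 copy on chromosome 13, had a ratio of 0.129 and 0.108 in the libraries labelled knockout, against 0.329 and 0.355 in wild type, a log2 difference of -1.54. Wild type replicate 2, which stood apart in level, did not stand apart in either ratio.

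Ratios were compared for 71 copies with at least 1000 counts in each library for both copy and member. The knockout ratios lay below both wild type ratios in 14 (19.7% of the 71), above them in 5 (7.04%) and overlapped in 52. Both percentages are shares of the 71 copies themselves, and no share over all genes was computed for such ratios. Several copies were set against the same member, so their ratios were not independent. The median log2 difference was -0.03. Other examples without overlap were Gm10275 to Rpl12 at -0.83 and Gm10420 to Rps2 at 0.89. Their libraries were less close within a group, with largest gaps of 0.55 for Gm10275 and 1.02 for Gm10420 on the log2 scale. For Gm10420 that gap exceeded the difference between the groups. The Rplp0 family sum gave the lowest log2 fold change of the module, -1.03 (SE 0.61, edgeR adjusted p = 0.659), against -0.22 at the Rplp0 locus. The stretch below, from 1 coding exon of Rplp0 in the same annotation, is shown because it holds bases by which reads of the copies can be told apart; capitals mark bases that differ from Rplp0.
Rplp0, chr5:115561168-115561227, plus strand: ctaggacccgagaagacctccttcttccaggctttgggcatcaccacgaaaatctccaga
Gm8730, chr8:102865352-102865411, minus strand: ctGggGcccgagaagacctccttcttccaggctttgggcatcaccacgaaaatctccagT
Gm9625, chr13:67810633-67810692, plus strand: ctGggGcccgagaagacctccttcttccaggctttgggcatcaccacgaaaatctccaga
Over the 951 coding bases of Rplp0, Gm8730 differed at 12 and Gm9625 at 24, so long stretches are shared by the genes.

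**Figure D5:**
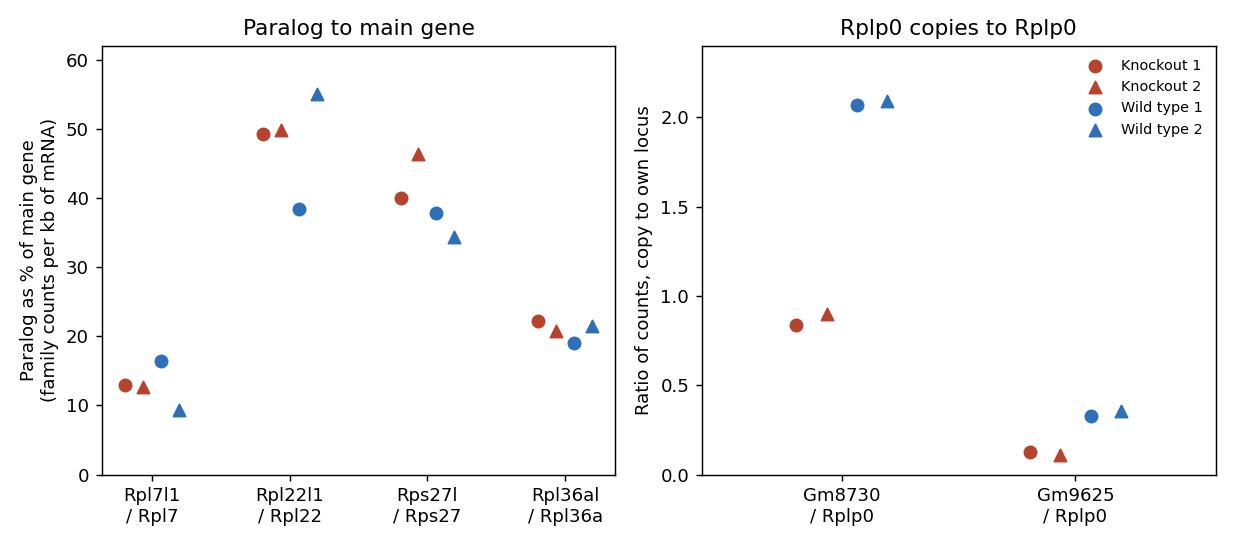
Left, paralog as a percentage of its main gene in family counts per kilobase of mRNA; right, ratio of counts of 2 Rplp0 copies to Rplp0; knockout in red, wild type in blue, circles for replicate 1 and triangles for replicate 2. The Gm8730 ratio is 0.839 and 0.898 in the knockout libraries and 2.07 and 2.09 in wild type, whereas the Rpl7l1, Rpl22l1 and Rpl36al ratios overlap.

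Relative to the module, most main genes differed little between the groups. When each family level was taken relative to the median main gene of its library, 48 of 77 genes differed between the groups by less than 0.25 on the log2 scale. Knockout libraries lay below wild type without overlap for 11 genes (14.3% of the 77) and above for 14 (18.2% of the 77). These are shares of the main genes themselves, and no share over all genes was computed on this relative scale. The Rps10 family stood lowest, at -0.15 and -0.10 in the libraries labelled knockout, against 0.58 and 0.28 in wild type. The Rps10 locus, whose protein is mutated in some human Diamond-Blackfan anaemia, held only 5.83% of those family counts. Its own-locus log2 fold change was -0.46. Rps10-ps2, a processed pseudogene, had 8967 and 7540 counts in the libraries labelled knockout, against 15867 and 20236 in wild type. That copy gave a log2 fold change of -1.08. Rpl27 stood highest, at -0.03 and 0.18 in the libraries labelled knockout, against -0.22 and -0.72 in wild type, a difference of 0.55. Rplp0 and Rps14 followed Rps10 on the lower side at -0.48 each. On the higher side Rpl23, Rpl15 and Rps12 followed Rpl27 at 0.50, 0.49 and 0.46. Own loci held 35.6% of the Rplp0 family counts, 89.6% of those of Rps14 and 4.16% of those of Rpl27. The differences in relative level were not tested across features.

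The promoters were examined because the members moved together by library. RefSeq (GRCm38.p6) gave a promoter window of 250 bases before to 50 bases after the start for 63 of the 83 members. A C at the annotated start followed by at least 4 pyrimidines was found in 13 of 63 members (20.6%), against 3.01% of 27025 genes. The letters CCGGAAG, an ETS family motif, were found on either strand in 26 members (41.3%), against 9.93% of genes, and the E-box CACGTG, which Myc can bind, in 6 (9.52%), against 8.09%. AAGATGGC, a YY1 motif, was in 6 members (9.52%), against 3.19%, and TATAAA in 7 (11.1%), against 15.7%. The windows below were chosen to show the TOP start, and a paralog without a match at its exact annotated start. Each runs from 50 bases before the RefSeq start to base 30 of the transcript. Capitals mark the C and pyrimidine run or CCGGAAG.
Rps10, chr17:27635215-27635294, minus strand: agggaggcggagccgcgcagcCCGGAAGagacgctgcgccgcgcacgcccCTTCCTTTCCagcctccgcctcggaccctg
Rps6, chr4:86857338-86857417, minus strand: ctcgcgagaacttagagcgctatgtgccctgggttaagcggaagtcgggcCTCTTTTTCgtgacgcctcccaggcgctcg
Rps18, chr17:33955636-33955715, minus strand: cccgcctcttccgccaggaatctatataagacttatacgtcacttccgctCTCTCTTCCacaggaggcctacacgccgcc
Rplp2, chr7:141447601-141447680, plus strand: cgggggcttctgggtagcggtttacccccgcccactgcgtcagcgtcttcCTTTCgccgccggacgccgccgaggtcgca
Rps27, chr3:90213619-90213698, minus strand: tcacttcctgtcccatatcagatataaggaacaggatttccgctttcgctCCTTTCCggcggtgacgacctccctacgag
Rps27l, chr9:66946036-66946115, plus strand: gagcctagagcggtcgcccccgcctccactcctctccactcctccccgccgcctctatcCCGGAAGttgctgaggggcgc
Rps10 holds both motifs within the printed bases, and Rps6, Rps18 and Rplp2 hold both within the longer window searched. The annotated start of Rps27l is a G, but a C followed by 4 pyrimidines begins at the next base. Its lack of a match therefore rests on the exact annotated start, and a match describes the letters only.

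Genes that work with the ribosomal proteins were read from lists, none of whose members passed the adjusted threshold by edgeR's quasi-likelihood test. Of 23 translation factors and other TOP mRNAs, 18 were negative and 5 positive, with a median of -0.21, and wild type replicate 2 was the highest library for 14. Vim was lowest at -0.95, and Eif4a2, an RNA helicase of cap-dependent initiation, stood at 1.26 with 221 and 339 CPM in the libraries labelled knockout, against 157 and 77 CPM in wild type. Of the ribosome-associated genes outside the naming pattern, Rack1 and Fau gave -0.36 and -0.47, each with wild type replicate 2 highest. Of 10 snoRNA host genes, many of which carry TOP starts themselves, 9 were positive with a median of 0.51, the opposite sign to the ribosomal proteins. Snhg12 had 25.6 and 35.3 CPM in the libraries labelled knockout, against 16.6 and 18.3 CPM in wild type (log2 fold change 0.80, SE 0.34, edgeR adjusted p = 0.6), and both knockout libraries lay above both wild type ones for 6 of the 10 (21.9% of all tested genes). Their median was 0.54 when wild type replicate 2 was left out and 0.62 when wild type replicate 1 was.

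Of 14 genes of the mTORC1, LARP1 and S6 kinase axis, 10 were positive, with a median of 0.22. Larp1, the TOP mRNA binding protein, had 293 and 250 CPM in the libraries labelled knockout, against 190 and 144 CPM in wild type (log2 fold change 0.70, SE 0.33, edgeR adjusted p = 0.628). Of 14 p53 genes, which respond when free ribosomal proteins bind Mdm2, 7 were negative and 7 positive. Cdkn1a had 112 and 100 CPM in the libraries labelled knockout, against 250 and 215 CPM in wild type (log2 fold change -1.13, SE 0.31, edgeR adjusted p = 0.545), while Mdm2 stood at 0.70. Of 8 chaperones and importers of single ribosomal proteins, 4 were negative and 4 positive.

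Other gene groups differed between the libraries in several ways, and only some were highest in wild type replicate 2. Of 32 short nuclear mRNAs of respiratory chain subunits, 25 were negative, with a median of -0.27, and wild type replicate 2 was the highest library for 25; without it the median was -0.02. The 7 hepatocyte markers found summed to 35210 and 33250 CPM in the libraries labelled knockout, against 13740 and 47820 CPM in wild type. The 8 leukocyte markers summed to 236 and 156 CPM in the libraries labelled knockout, against 435 and 424 CPM in wild type, and 7 were lower without overlap (20.1% of all tested genes). The 7 erythroid markers, of which 5 were tested and 1 was at 0 in a library, summed to 212 and 150 CPM in the libraries labelled knockout, against 955 and 2168 CPM in wild type. Endothelial markers summed to 110 and 80.3 CPM in the libraries labelled knockout, against 151 and 166 CPM in wild type, and fibroblast and stellate markers to 623 and 1132 CPM, against 1388 and 1181 CPM. B and plasma cell markers were low, at 5.54 and 8.50 CPM in the libraries labelled knockout, against 5.65 and 4.22 CPM in wild type. The part of these cell types, and of the library differences, in the ribosomal protein values was not tested.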

How the data were processed

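Poly(A) RNA of bulk mouse HCC was sequenced, 1 library for each of 2 knockout and 2 wild type mice. The authors deposited raw counts per gene as whole numbers and FPKM, normalized to gene length and library total. Per the submitters' processing notes, the tools were StringTie, HISAT2, edgeR and SAMtools 1.3.1 on build mm10; their roles are unstated. Gene lengths behind the deposited FPKM were inferred from counts, FPKM and library totals. They exceeded the union of exons for 77 of 80 members (median ratio 1.61), so per-length ratios were computed from counts and mRNA length. After filterByExpr and TMM scaling, edgeR's quasi-likelihood test (edgeR 4.0.16, R 4.3.3) was run two-sided. Its p-values were adjusted by Benjamini-Hochberg across 16310 genes, with a threshold of 0.05. The fit was tested on simulated data. Single values were tested with exact permutation over libraries, which cannot go below p = 0.333. Totals were 15918349 to 17052943 counts. Wilson intervals of the shares cover counting error only. Intervals of the log2 fold changes come from the edgeR fit and include its estimated spread between libraries. Annotation was GENCODE M21, whose spans equalled the deposited ones for all 83 members. Similar genes were found with BLAST 2.17.0. Motif and paralog identities were computed from RefSeq promoters and GENCODE transcripts. Named genes were each paralog with its main gene, up to 5 tested main genes per direction with the smallest p, the stalk genes with Rpsa, the 4 members highest in FPKM, and up to 3 genes per list; Rps10, Rpl23, Rpl15, the copies and further list genes were chosen after their values were seen. The members and lists were chosen with earlier results of these data known. Alternatives were other scalings, filters, DESeq2 (1.42.0), limma-voom (limma 3.58.1), a replicate block, leaving out each library and, added after seeing the data, family sums. A gene on the opposite strand overlapped 22 members, and for 1, Rpl28, it had more counts; whether strand was counted is unstated. Of the genes this rule takes, a gene from the lists is not reported here.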

Additional observations from a re-analysis of the deposited data

How the results depend on the processing

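With 2 libraries in a group and wild type replicate 2 standing apart, the estimated spread rests mainly on the other genes, and 2 against 2 libraries did not resolve differences of the size seen here. Where a library was left out, the remaining one of its group was taken to vary as the other group did. Ribosomal protein genes past the threshold stayed at 0 under each alternative run. Over all tested genes the count was 0 in edgeR's main fit, 1 with library totals, 148 with DESeq2, 1 with limma-voom and 0 to 409 leaving out 1 library (68 when wild type replicate 2 was dropped, 409 when wild type replicate 1 was). The median log2 fold change of the tested members ran from -0.62 to 0.02 leaving out 1 library. Under the other alternatives it ran from -0.46 to -0.28, with family sums the lowest. The family sums turned Rpl10 to -0.42, Rps13 to -0.43 and Rps27a to -0.16. Of 251 values of 28 named genes under alternatives other than leaving out a library, these 3 reversed and 248 kept direction and side. Leaving out 1 library turned 9 of 112 values.

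Lowest and highest values leaving out 1 library were, for the log2 fold changes, -0.42 to 0.39 for Rpl22l1, -0.76 to 2.88 for Rps4l, -0.38 to 0.13 for Rpl36al, -0.74 to 0.53 for Rplp0, -1.09 to 0.12 for Rplp1 and -0.67 to 0.36 for Rpsa. For the log2 ratios of own-locus counts per length, not those of family sums, they were -0.36 to 0.48 for Rpl7l1 to Rpl7, -0.03 to 0.40 for Rpl22l1 to Rpl22, -0.02 to 0.31 for Rps27l to Rps27 and -0.05 to 0.21 for Rpl36al to Rpl36a.

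With the replicate number as a block, 4 genes passed over all genes and 0 members did, and the median of the members was -0.28. Same-numbered libraries deviated together with a correlation of 0.121 over 16310 genes, but 2 pairs do not establish that the numbers pair the mice, so the samples share only a number.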
